A study of Mus musculus with 12 samples.

Results

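Apoe and 9 other genes of lipid efflux and lipoprotein handling were followed across 4 groups of transduced mouse bone marrow cells. The 10 genes, Apoe, Apoc1, Apoc2, Abca1, Abcg1, Lpl, Lipg, Pltp, Nr1h3 and Mylip, were taken by symbol from a count table of 19910 genes. They were chosen by their counts in these same libraries and by what they do, so their values are given as a description. The cells were bone marrow of female C57BL/6J mice aged 6 to 10 weeks, and every group received a pair of retroviral vectors. The empty group received 2 vectors without an insert. The SETBP1 group received SETBP1 D868N and an empty vector, the NRAS group an empty vector and NRAS G12D, and the SETBP1+NRAS group both mutants. The study compared expression with mutant SETBP1, mutant NRAS or both. The labels call all 12 libraries leukemia cells, the empty ones included, and give 3 numbered replicates per group. Nothing in the labels says whether replicates came from separate mice or cultures, so the errors measure only the spread between these libraries, which may be technical. Mutant proteins were delivered by retrovirus and not expressed from their own loci.

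Macrophages and other cells export surplus cholesterol through the membrane transporters Abca1 and Abcg1, which load it onto apolipoproteins such as Apoe. The liver X receptors, of which Nr1h3 encodes the alpha form, are nuclear receptors that bind oxidised cholesterol derivatives and turn on Abca1, Abcg1, Apoe, Apoc1, Apoc2, Pltp, Lpl and Mylip in macrophages. Lpl and Lipg are secreted lipases that act on triglycerides and phospholipids of lipoproteins, and Pltp moves phospholipids between lipoprotein particles. In bone marrow, Apoe and the 2 transporters are known for limiting the response of stem and progenitor cells to growth factors.

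Total counts ran from 7085894 to 8864919 per library, and 11835 to 12800 genes had at least 1 count. SETBP1 replicate 3 had both the highest total and the fewest genes. Levels are normalised CPM, counts divided by the TMM-scaled library total and expressed as CPM, where TMM is the trimmed mean of M values. The Nras row, which should be high where the NRAS vector was given, was at 82.0 to 93.0 normalised CPM in the 6 libraries without the vector and at 1423 to 1712 in the 6 with it. The mouse Setbp1 row had 5 to 17 counts in each of the 6 libraries given the SETBP1 vector and none in the other 6. SETBP1 replicate 3 stood apart from its group: its log2 CPM correlated at r = 0.946 and 0.953 across genes with the other 2 SETBP1 libraries, against 0.984 to 0.991 for the other replicate pairs. Markers of the bone marrow lineages were present, led by neutrophil and monocyte genes, while the summed T-lymphoid markers stayed between 0 and 0.553 normalised CPM.

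Upstream sequences are shown for Apoe, Abca1 and Pltp, the 3 members whose level was higher in the SETBP1 than in the empty group by the threshold used below. Each is the 250 bases before the gene's start in RefSeq (GRCm38.p6), read 5′ to 3′ on the gene's own strand, which is the minus strand for all 3. Capitals mark matches to the motifs searched on both strands. The Apoe stretch is chr7:19699189-19699438, the Abca1 stretch chr4:53159896-53160145 and the Pltp stretch chr2:164857709-164857958.
Apoe: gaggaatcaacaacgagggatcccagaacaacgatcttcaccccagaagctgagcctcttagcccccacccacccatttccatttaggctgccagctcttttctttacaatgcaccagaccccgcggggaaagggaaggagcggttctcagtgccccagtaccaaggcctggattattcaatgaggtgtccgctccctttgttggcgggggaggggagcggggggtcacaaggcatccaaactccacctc
Abca1: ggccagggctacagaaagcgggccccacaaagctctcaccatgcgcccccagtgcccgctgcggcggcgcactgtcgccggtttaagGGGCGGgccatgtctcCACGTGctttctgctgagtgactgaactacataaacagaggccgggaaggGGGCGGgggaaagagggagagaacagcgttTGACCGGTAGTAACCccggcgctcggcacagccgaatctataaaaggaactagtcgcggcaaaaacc
Pltp: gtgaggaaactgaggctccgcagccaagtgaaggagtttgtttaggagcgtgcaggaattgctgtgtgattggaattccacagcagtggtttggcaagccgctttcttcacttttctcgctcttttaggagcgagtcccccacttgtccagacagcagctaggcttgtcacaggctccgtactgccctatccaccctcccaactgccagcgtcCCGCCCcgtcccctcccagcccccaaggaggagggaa

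Motifs were searched in the RefSeq promoters of 6 of the 10 members, which are these 3 with Apoc2, Nr1h3 and Mylip. Those of Apoc1, Abcg1, Lpl and Lipg were not searched, so the counts below say nothing about them. Only 1 promoter per gene was searched. That of Nr1h3 (chr2:91195117-91195366) lies inside the gene's locus of 91184061 to 91202834 and not at its upstream end. The liver X receptor direct repeat, AGGTCA on both sides of 4 free bases, was in 0 of the 6 and in 5 of 32851 promoters of the same length, or 0.0152%. Only exact copies were searched, so a receptor site with other bases in its arms would be missed. A second direct repeat, GGTTA and GGTCA on both sides of 5 free bases, was chosen after the Abca1 sequence had been seen. Its match in Abca1 was therefore fixed in advance. Counted with 1 more base on the 5′ side of each arm, it has 4 free bases, as the liver X receptor repeat has. This pattern matched Abca1 on the opposite strand as GGTTACTACCGGTCA, 67 to 53 bases before the start, and 15 of all promoters, or 0.0457%. The single arm AGGTCA of the direct repeat was in Apoc2 alone, and in 14% of all promoters. The E-box CACGTG, which MYC and MITF family factors bind, was in Abca1 alone, 147 to 142 bases before the start, and in 6.02% of all promoters. The SP1 motif GGGCGG was in Abca1, Pltp and Mylip and in 32.7% of all promoters. The AP-1 motif TGANTCA and the GATA motif AGATAA were in none of the 6, and in 6.75% and 9.99% of all promoters. The Apoe stretch held no match to any of these motifs.

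Of the 10 members, 8 passed the filter on low counts, and Apoc1 and Apoc2 did not. Changes are log2 fold changes with standard errors (SE) from edgeR's quasi-likelihood fit over all 10993 genes that passed, and the threshold is a Benjamini-Hochberg adjusted p of 0.05 over those genes. The 3 comparisons with the empty group share its libraries, and those of the SETBP1+NRAS group share that group. In SETBP1 against empty, 4 of the 8 tested members passed the threshold, beside 14.9% of all tested genes. Of these, 3 were higher, beside 8.31% of all genes, and 1 lower, beside 6.55%. With NRAS against empty the number was 7, beside 32.5%, with 1 higher (17.0% of all genes) and 6 lower (15.5%). For SETBP1+NRAS against empty it was 6, beside 40.6%, with 2 higher (20.8%) and 4 lower (19.8%). Between SETBP1+NRAS and SETBP1 it was 7, beside 42.4%, with 1 higher (20.9%) and 6 lower (21.5%). SETBP1+NRAS against NRAS gave 1, beside 1.91%, with 0 higher (0.528%) and 1 lower (1.38%). The median log2 fold change of the tested members was 0.51 for SETBP1 and -0.90 for NRAS, each against empty, where that of all tested genes was -0.01. Because the same contrasts chose the members, nothing is read from these counts. Without SETBP1 replicate 3 the numbers were 4, 7, 7, 7 and 2 in the same order, beside 15.3%, 47.0%, 53.7%, 46.5% and 7.52% of all genes. Fitted on the 2 groups compared alone, the number was 2 (Apoe and Lipg) in SETBP1 against empty, beside 110 of 10688 tested genes. In SETBP1+NRAS against NRAS it was 3 (Lpl, Lipg and Pltp), beside 883 of 10555 tested genes.

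**Figure D1:**
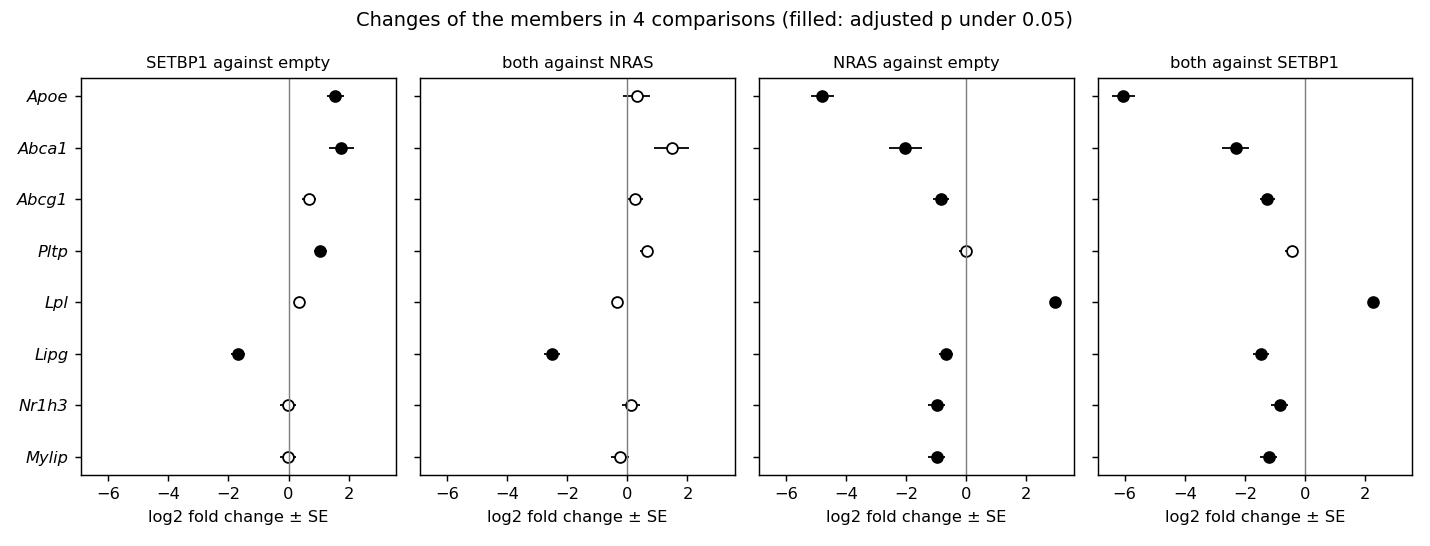
Log2 fold changes with their SE (horizontal axis and bars) of the 8 tested members (rows) in 4 comparisons, where "both" is the SETBP1+NRAS group and filled points passed the threshold. Apoe lies at 1.56 in SETBP1 against empty and at -4.79 in NRAS against empty, while Lpl lies at 0.34 and 2.94.

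Apoe, which encodes the apolipoprotein that carries cholesterol out of macrophages, lies on the minus strand of chromosome 7 (GRCm38, 19696109 to 19699188). It was at 229, 260 and 210 normalised CPM in the empty libraries and at 463, 548 and 1055 in the SETBP1 libraries. The NRAS libraries had 11.8, 9.88 and 3.68, and the SETBP1+NRAS libraries 11.3, 13.1 and 6.73. Every SETBP1 library was above every empty library, and all 6 libraries with mutant NRAS were far below both, with the 2 NRAS-carrying groups overlapping each other. Group means were 233 ± 25.5 (SD, n = 3) in empty, 689 ± 320 in SETBP1, 8.44 ± 4.23 in NRAS and 10.4 ± 3.27 in SETBP1+NRAS.

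The Apoe level was 2.96-fold higher in SETBP1 than in empty (log2 1.56 ± 0.29 SE), and log2 1.12 ± 0.15 without SETBP1 replicate 3, whose removal takes the group mean to 505. In NRAS it was 27.7-fold lower than in empty (log2 -4.79 ± 0.38), and in SETBP1+NRAS 66.2-fold lower than in SETBP1 (log2 -6.05 ± 0.38, and -5.60 ± 0.20 without SETBP1 replicate 3). Mutant SETBP1 on top of NRAS gave log2 0.31 ± 0.44, an estimate smaller than its SE. The difference between the SETBP1 changes with and without NRAS, the interaction, was log2 -1.26 ± 0.53, and -0.81 ± 0.32 without SETBP1 replicate 3. No member's interaction passed the threshold in edgeR, DESeq2 or limma-voom, beside 0.0455% of all tested genes in edgeR. At an unadjusted p of 0.05 the interaction counts were 3 members in edgeR (Apoe, Lpl and Lipg), 3 in DESeq2 and 1 in limma-voom. The share of all tested genes at that unadjusted p is not given here, so nothing is read from these counts. In bulk libraries such as these, fewer cells of a type and less RNA per cell cannot be told apart.

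**Figure D2:**
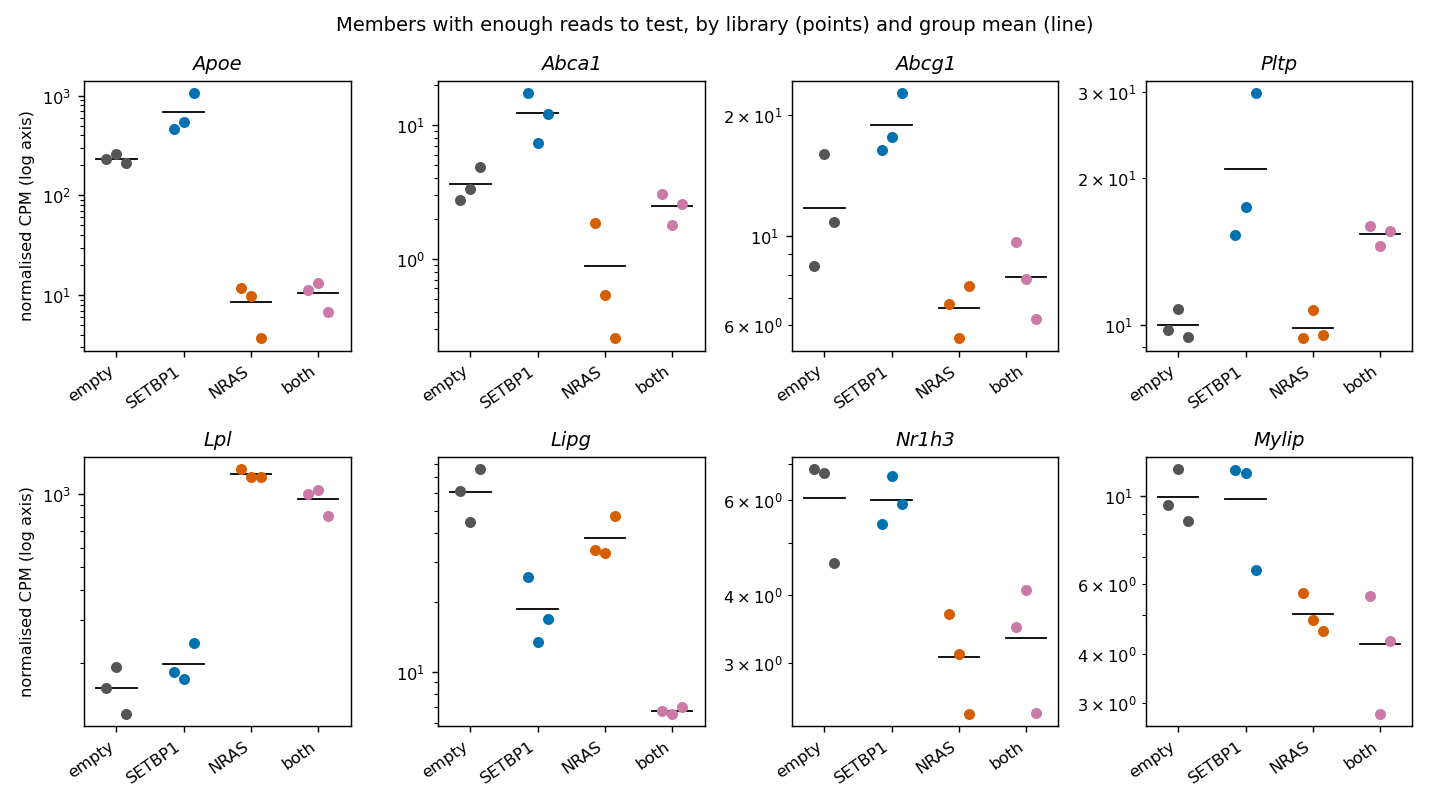
Normalised CPM (vertical log axis, scaled per gene) of the 8 tested members in each library (points, n = 3 per group) with the group mean (line), where "both" is SETBP1+NRAS. Apoe is at 210 to 260 in the empty libraries, at 463 to 1055 in the SETBP1 libraries and at 3.68 to 13.1 in the 6 libraries with mutant NRAS.

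Some macrophage markers were higher with Apoe in the SETBP1 than in the empty group. The summed level of the 10 listed macrophage markers, led by Cd68 and the complement genes C1qb and C1qc, was 641 to 744 normalised CPM in empty and 1089 to 2055 in SETBP1. SETBP1 replicate 3 was highest in both this sum and Apoe. Mean levels went from 174 in empty to 500 in SETBP1 for C1qb, 91.7 to 272 for C1qc, 34.3 to 115 for C1qa and 176 to 287 for Cd68, while Vcam1 (59.5 and 58.3) and Mrc1 (31.7 and 36.3) were close in the 2 groups. In the NRAS group the sum was 453 to 613. Cd68 (223) and Mrc1 (56.2) averaged above empty in that group, while C1qb (98.0), C1qc (48.8), C1qa (15.9), Adgre1 (49.2) and Vcam1 (29.5) averaged below it. In SETBP1+NRAS the sum was 821 to 1004, above the empty range although Apoe was at 6.73 to 13.1 there. The single markers were not all above empty in SETBP1+NRAS: Cd68 averaged 304, C1qb 231 and Mrc1 123, but Vcam1 was at 10.2 and Adgre1 at 84.1, against 59.5 and 108 in empty. Of the resident-macrophage markers, Timd4 was at 0 in all 12 libraries. Spic averaged 0.982 in empty, 2.52 in SETBP1, 0.217 in NRAS and 0.303 in SETBP1+NRAS, and Cd5l 0.243, 1.07, 0.263 and 0.312. Mast cell and basophil markers summed to 1475 to 1504 in empty, 808 to 1049 in SETBP1, 573 to 965 in NRAS and 362 to 492 in SETBP1+NRAS, with all 9 listed genes counted in each group. Megakaryocyte markers, led by Pf4 and Itga2b, summed to 221 to 263 in empty, 296 to 628 in SETBP1, 142 to 203 in NRAS and 244 to 270 in SETBP1+NRAS. Monocyte markers summed to 4637 to 5055, 4769 to 5940, 3498 to 3859 and 3001 to 3362 in that order of groups. The sums of 7 of 8 neutrophil markers were 10311 to 11654, 4608 to 6709, 5154 to 6787 and 1692 to 2114. Not every marker followed its sum. In NRAS, Hdc averaged 312 and Retnlg 28.0, against 225 and 27.6 in empty. In SETBP1+NRAS, Ccr2 averaged 463 and Csf1r 339, against 426 and 331 in empty, while Ly6c2, the largest part of the monocyte sum, went from 3250 to 2198. Itga2b averaged 89.3 in empty, 64.9 in SETBP1 and 25.3 in SETBP1+NRAS, where Pf4 averaged 76.8, 218 and 161. Erythroid markers stayed at or below 36.8 in sum, with Hbb-bs and Hba-a1 at 0 in every library, and B-lymphoid markers at or below 21.6. The part of these shifts in the levels of the members was not tested.

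**Figure D3:**
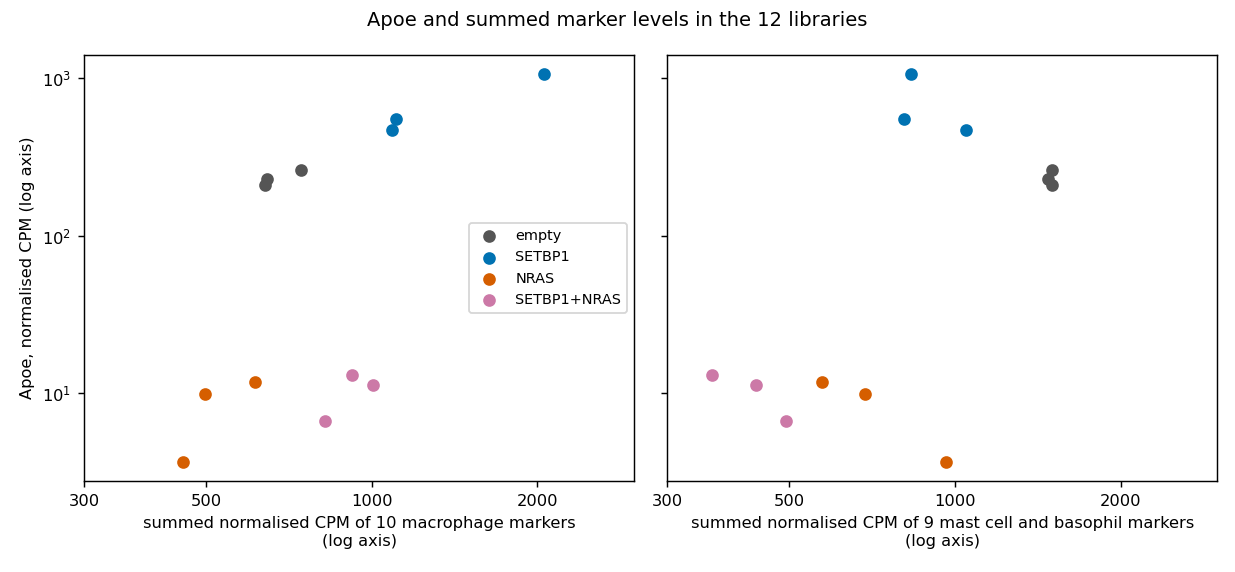
Apoe in normalised CPM (vertical log axis) against the summed normalised CPM of 10 macrophage markers (left, log axis) and of 9 mast cell and basophil markers (right, log axis), 1 point per library. The SETBP1+NRAS libraries lie at 821 to 1004 in macrophage markers, to the right of the empty libraries at 641 to 744, with Apoe at 6.73 to 13.1 against 210 to 260.

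Apoc1 and Apoc2, small apolipoproteins encoded beside Apoe, had too few counts to pass the filter, and neither passed the threshold in any comparison when the fit was run without it. Apoc1 (chromosome 7, 19689481 to 19692660), which limits lipoprotein uptake by receptors, had 8 counts over the 3 empty libraries, 9 over the SETBP1 libraries and 1 in each of the NRAS-carrying groups. These counts pool to 0.329 normalised CPM in empty (95% exact Poisson interval 0.142 to 0.648) and 0.369 in SETBP1 (0.169 to 0.700). In NRAS they pool to 0.0438 (0.00111 to 0.244), and in SETBP1+NRAS to 0.0447 (0.00113 to 0.249). The intervals cover counting error only, and those of the NRAS-carrying groups overlap those of the other 2. Apoc2 (chromosome 7, 19671579 to 19677941), the cofactor that Lpl needs, had 4 counts in empty, 4 in SETBP1, 1 in NRAS and 0 in SETBP1+NRAS, where a count of 0 allows up to 3 counts, or 0.134 normalised CPM (0.165 by the upper bound of the same 95% exact interval). Its exons are shared with the annotated readthrough gene Gm44805, so these few reads are uncertain.

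The chromosomal neighbours of the cluster had smaller log2 fold changes than Apoe. Of 11 listed neighbours, 10 were matched in the table and 7 passed the filter. In SETBP1 against empty, 2 of the 7 rose and 0 fell, beside 8.31% and 6.55% of all tested genes, and neither passed when only these 2 groups were fitted. These were Tomm40, the mitochondrial import pore next to Apoe, at log2 0.50 ± 0.10 SE (edgeR adjusted p = 0.00943), and Gemin7, a splicing-particle assembly factor, at 0.43 ± 0.12 (adjusted p = 0.0331). The Gemin7 call was lost without any 1 of the 3 empty libraries, NRAS replicate 2 or SETBP1 replicate 3 (log2 0.28 to 0.46, edgeR adjusted p = 0.0502 to 0.122). In NRAS against empty, 2 of the 7 rose and 0 fell, beside 17.0% and 15.5% of all tested genes: Tomm40 at log2 0.50 ± 0.10 (edgeR adjusted p = 0.00208) and Clptm1 at 0.30 ± 0.09 (adjusted p = 0.0166). The Clptm1 call was lost without empty replicate 2 or NRAS replicate 2 (log2 0.25 to 0.29, edgeR adjusted p = 0.0555 to 0.08). The remaining tested neighbours, Gemin7, Zfp296, Clasrp, Relb and Bcl3, were at log2 0.14, 0.12, -0.03, 0.46 and -0.21 in that comparison, where Apoe was at -4.79. Bcam, Cblc and Apoc4 had 0 to 7 counts per library and were not tested.

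**Figure D4:**
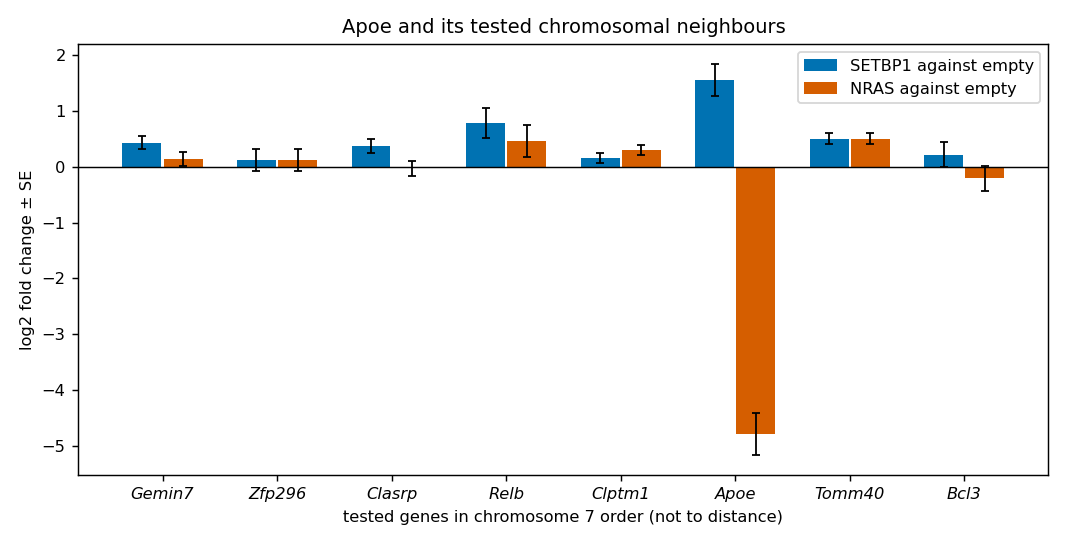
Log2 fold changes with SE (vertical axis, bars from 0) of Apoe and its 7 tested neighbours, ordered along chromosome 7 but not drawn to distance, for SETBP1 against empty and NRAS against empty. The neighbours lie between -0.21 and 0.78, and Apoe at 1.56 and -4.79.

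Abca1, the transporter that passes cholesterol and phospholipid to lipid-poor apolipoproteins, lies on the minus strand of chromosome 4 (53030787 to 53159895). Its libraries were at 2.77, 3.30 and 4.86 normalised CPM in empty and 17.3, 7.32 and 12.2 in SETBP1. They were at 1.85, 0.541 and 0.254 in NRAS and 3.08, 1.79 and 2.56 in SETBP1+NRAS. All SETBP1 libraries were above the empty ones and all NRAS libraries below them, while SETBP1+NRAS overlapped both empty and NRAS. The level was 3.39-fold higher in SETBP1 than in empty (log2 1.76 ± 0.42 SE) and 4.07-fold lower in NRAS (log2 -2.02 ± 0.55). It was log2 1.47 ± 0.58 for SETBP1+NRAS against NRAS, which did not pass the threshold, and -2.31 ± 0.44 for SETBP1+NRAS against SETBP1. The NRAS group held 20 Abca1 counts in all, 2 to 14 per library, so these fold changes rest on few reads. The Abca1 call in SETBP1 against empty was lost without empty replicate 1 or empty replicate 2 (log2 1.60 to 1.71) and that in NRAS against empty without NRAS replicate 2 or NRAS replicate 3 (log2 -1.78 to -1.58).

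Abcg1, which exports cholesterol to mature high-density lipoprotein, lies on the plus strand of chromosome 17 (31057675 to 31117988). It had 8.41, 16.0 and 10.8 normalised CPM in empty, 16.3, 17.6 and 22.6 in SETBP1, 6.74, 5.55 and 7.48 in NRAS, and 9.65, 7.81 and 6.19 in SETBP1+NRAS. The order of the means was that of Apoe, with SETBP1 highest and empty next, and the NRAS-carrying groups overlapped each other for both genes. However, empty replicate 2, at 16.0, was next to the lowest SETBP1 library, at 16.3. SETBP1 against empty gave log2 0.69 ± 0.24 SE (0.54 ± 0.23 without SETBP1 replicate 3), which did not pass the threshold with edgeR and passed it with DESeq2 and limma-voom. It also passed without empty replicate 2 or SETBP1 replicate 1 (log2 0.79 to 0.99). NRAS against empty gave log2 -0.83 ± 0.26, below in every library, and was no longer called without empty replicate 2, NRAS replicate 1 or NRAS replicate 2 (log2 -0.84 to -0.54), or with limma-voom (log2 -0.77). SETBP1+NRAS against empty gave log2 -0.57 ± 0.25, which passed only where empty replicate 1 or SETBP1 replicate 3 was left out (log2 -0.77 to -0.57) among the fits that leave out 1 library.

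Pltp, the phospholipid transfer protein, lies on the minus strand of chromosome 2 (164839518 to 164857711). Its libraries were at 9.74, 10.8 and 9.45 normalised CPM in empty, 15.3, 17.4 and 29.8 in SETBP1, 9.38, 10.7 and 9.51 in NRAS, and 15.9, 14.5 and 15.6 in SETBP1+NRAS. Both groups with mutant SETBP1 were above both groups without it in every library, and the empty and NRAS groups overlapped. This order differs from that of Apoe, whose libraries split by NRAS. SETBP1 against empty was 2.09-fold higher (log2 1.06 ± 0.22 SE, and 0.71 ± 0.16 without SETBP1 replicate 3). SETBP1+NRAS against NRAS was 1.55-fold higher (log2 0.64 ± 0.22), which passed the threshold only where SETBP1 replicate 3 was left out (0.64 ± 0.15) among the fits that leave out 1 library. The call in SETBP1 against empty was lost without empty replicate 3 (log2 1.03). That in SETBP1+NRAS against empty (log2 0.62 ± 0.22) was lost without any 1 library of the empty, NRAS or SETBP1+NRAS groups (log2 0.57 to 0.67), with limma-voom, under 2 of 3 other scalings (log2 0.49 and 0.55), and with the filter at a mean count of 50 (log2 0.59). SETBP1+NRAS against SETBP1 gave log2 -0.44 ± 0.21, and -0.09 ± 0.15 without SETBP1 replicate 3. Among the fits that leave out 1 library it passed only without SETBP1 replicate 1 (log2 -0.64). Pltp overlaps Ctsa on the opposite strand, and whether counting used strand is not given in the sources used here, so part of the reads could belong to Ctsa.

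Lpl, the lipase that frees fatty acids from triglyceride-rich lipoproteins, lies on the plus strand of chromosome 8 (68880491 to 68907448). It was at 157, 193 and 123 normalised CPM in empty and 183, 172 and 241 in SETBP1, and at 1268, 1179 and 1173 in NRAS and 999, 1041 and 811 in SETBP1+NRAS. The libraries with mutant NRAS were all above those without it, and the empty and SETBP1 groups overlapped. SETBP1 against empty gave log2 0.34 ± 0.16 SE, and 0.17 ± 0.13 without SETBP1 replicate 3. Lpl was 7.66-fold higher in NRAS than in empty (log2 2.94 ± 0.16 SE) and 4.78-fold higher in SETBP1+NRAS than in SETBP1 (log2 2.26 ± 0.16, and 2.42 ± 0.13 without SETBP1 replicate 3). The direction of Lpl was opposite to that of Apoe in NRAS against empty and in SETBP1+NRAS against SETBP1. Every SETBP1+NRAS library was below every NRAS library, at log2 -0.34 ± 0.15, which did not pass the threshold in the fit over all 12 libraries. The 7 stromal and fat cell markers summed to 0.538 to 2.29 normalised CPM in the 12 libraries, and Adipoq, the fat cell marker among them, averaged 0.0369 in empty and was at 0 in the other groups. The part of such cells in the Lpl level was not tested.

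Lipg, the endothelial lipase, which prefers phospholipids of high-density lipoprotein, lies on the minus strand of chromosome 18 (74939322 to 74961263). The empty libraries had 61.1, 44.7 and 76.1 normalised CPM, the SETBP1 libraries 25.7, 13.5 and 17.0, the NRAS libraries 33.8, 32.9 and 47.5, and the SETBP1+NRAS libraries 6.71, 6.53 and 7.0. The groups with mutant SETBP1 were below the matching groups without it in every library, and the SETBP1+NRAS libraries were the lowest of all 12. SETBP1 against empty gave a 3.23-fold lower level (log2 -1.69 ± 0.24 SE), and SETBP1+NRAS against NRAS a 5.64-fold lower one (log2 -2.50 ± 0.26). Lipg was the single member past the threshold in that last comparison. NRAS against empty gave log2 -0.67 ± 0.23, with overlapping libraries. That call was lost without empty replicate 1, empty replicate 3, NRAS replicate 1, NRAS replicate 2 or SETBP1+NRAS replicate 1 (log2 -0.67 to -0.48). SETBP1+NRAS against SETBP1 gave log2 -1.47 ± 0.27, below in every library. The interaction was log2 -0.80 ± 0.35 and did not pass the threshold.

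Nr1h3, which encodes liver X receptor alpha, lies on the minus strand of chromosome 2 (91184061 to 91202834). Its libraries were at 6.86, 6.73 and 4.59 normalised CPM in empty, 5.42, 6.66 and 5.92 in SETBP1, 3.70, 3.11 and 2.41 in NRAS, and 3.50, 4.10 and 2.42 in SETBP1+NRAS. All 6 libraries with mutant NRAS were below all 6 without it. NRAS against empty gave log2 -0.98 ± 0.28 SE and SETBP1+NRAS against SETBP1 gave -0.84 ± 0.28. SETBP1 against empty gave -0.02 ± 0.26, where Apoe and Abca1 were at 1.56 and 1.76. The Nr1h3 call in NRAS against empty was lost without empty replicate 1, empty replicate 2 or NRAS replicate 3 (log2 -0.91 to -0.84). In SETBP1+NRAS against empty (log2 -0.86 ± 0.28) it was lost without replicates 1 or 2 of the empty group or replicates 1 or 3 of the SETBP1+NRAS group (log2 -0.89 to -0.67). In SETBP1+NRAS against SETBP1 it was lost without SETBP1 replicate 2 or replicates 1 or 3 of the SETBP1+NRAS group (log2 -0.87 to -0.65), and when only these 2 groups were fitted (log2 -0.86).

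Mylip, a liver X receptor target whose product marks the low-density lipoprotein receptor for degradation, lies on the plus strand of chromosome 13 (45389742 to 45412022). It was at 9.51, 11.7 and 8.64 normalised CPM in empty, 11.6, 11.4 and 6.51 in SETBP1, 5.68, 4.87 and 4.56 in NRAS, and 5.59, 2.82 and 4.31 in SETBP1+NRAS. The libraries split by NRAS as those of Nr1h3 did, and SETBP1 replicate 3 was the lowest of those without mutant NRAS. NRAS against empty gave log2 -0.98 ± 0.28 SE, and SETBP1+NRAS against SETBP1 gave -1.21 ± 0.29 (-1.44 ± 0.25 without SETBP1 replicate 3). SETBP1 against empty gave -0.02 ± 0.26, and 0.20 ± 0.23 without SETBP1 replicate 3. The call in NRAS against empty was lost without empty replicate 2, NRAS replicate 2 or NRAS replicate 3 (log2 -0.95 to -0.85).

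Levels of different genes were compared per kilobase of exon. In the empty group Apoe led at a mean of 109 normalised CPM per kb, followed by Lpl at 15, Lipg at 12.9, Pltp at 3.90, Mylip at 3.08, Nr1h3 at 2.41, Abcg1 at 1.61 and Abca1 at 0.351. In the SETBP1 group Apoe led at 322 ± 150 (SD, n = 3), ahead of Lpl at 19.0 ± 3.52 and Pltp at 8.13 ± 3.06. In the NRAS group Lpl led at 115 ± 5.13, ahead of Lipg at 8.08 ± 1.74. Apoe at 3.95 ± 1.98 and Pltp at 3.85 ± 0.281 came next there and did not differ beyond their spread. In the SETBP1+NRAS group Lpl led at 90.7 ± 11.7, and Pltp at 5.99 ± 0.303 and Apoe at 4.85 ± 1.53 followed within their spread. Lipg, at 1.43 there, came after them. Abca1 was the lowest of the 8 in each group, at 0.0851 to 1.19. Pooled counts put Apoc1 at 0.442 and Apoc2 at 0.202 normalised CPM per kb in empty, where Apoe was at 109.

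**Figure D5:**
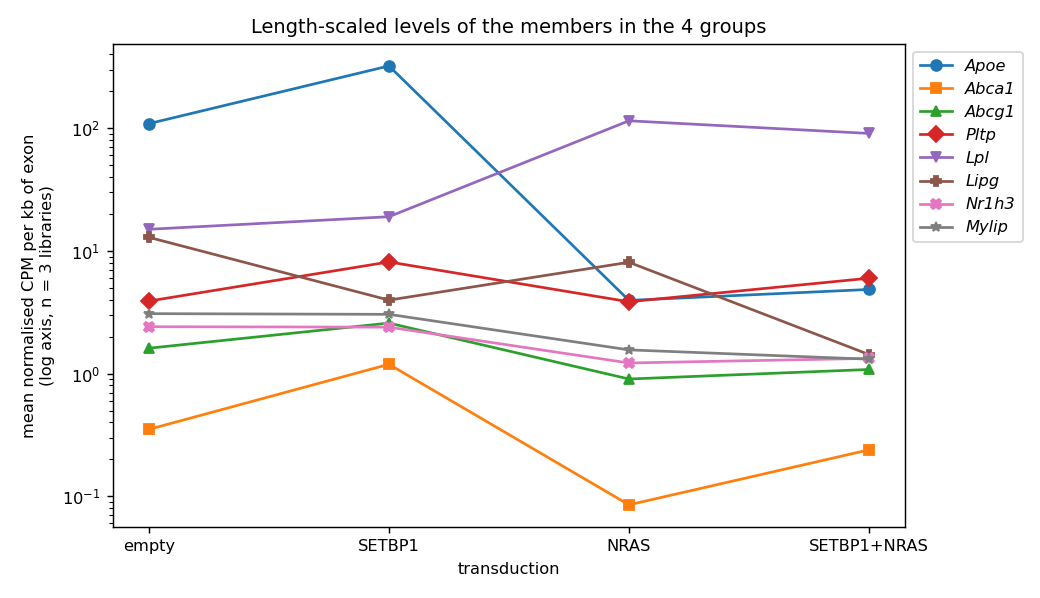
Mean normalised CPM per kb of exon (vertical log axis, n = 3 libraries) of the 8 tested members in the 4 groups, with lines joining the means of a gene across groups that have no order. Apoe is the highest member in empty (109) and SETBP1 (322), and Lpl in NRAS (115) and SETBP1+NRAS (90.7).

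Among 18 other apolipoproteins and factors that form high-density lipoprotein, 6 had enough reads. Their median log2 fold change was -0.45 in SETBP1 against empty and -0.51 in NRAS against empty, where that of all tested genes was -0.01 in each. Clu, a secreted apolipoprotein also called clusterin, fell in SETBP1 against empty (log2 -0.97 ± 0.15 SE, edgeR adjusted p = 0.00236) and in NRAS against empty (-2.64 ± 0.16, adjusted p = 5.51e-08), and was the 1 gene of the 6 past the threshold in the first of these, beside 14.9% of all tested genes. Its levels were 43.6 to 47.7 normalised CPM in empty, 22.7 to 24.3 in SETBP1, 5.95 to 9.51 in NRAS and 3.50 to 3.97 in SETBP1+NRAS, so Clu shared with Apoe the low level under NRAS but not the high level under SETBP1. It also fell in SETBP1+NRAS against NRAS (log2 -0.98 ± 0.20, edgeR adjusted p = 0.0186). That last call was lost with limma-voom (adjusted p = 0.0871), and without NRAS replicate 3 or any 1 of the SETBP1+NRAS libraries (log2 -1.04 to -0.74, edgeR adjusted p = 0.0595 to 0.0866). In NRAS against empty, 3 of the 6 fell and 0 rose, beside 15.5% and 17.0% of all tested genes, Clu with the lipid transporters Abca7 (log2 -0.71 ± 0.23, edgeR adjusted p = 0.0275) and Abca3 (-0.65 ± 0.22, adjusted p = 0.038). The Abca7 call was lost without empty replicates 1 or 3 or NRAS replicates 1 or 2 (log2 -0.72 to -0.63, edgeR adjusted p = 0.0675 to 0.0999). The Abca3 call was lost without any 1 of the empty or SETBP1+NRAS libraries or NRAS replicates 1 or 2 (log2 -0.68 to -0.53, edgeR adjusted p = 0.0518 to 0.144).

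Other genes of the liver X receptor pathway, partners and targets of the receptor among them, numbered 17, of which 14 were tested. Their median log2 fold change was -0.03 in SETBP1 against empty and -0.16 in NRAS against empty. In SETBP1 against empty, 0 passed the threshold with edgeR (4 at an unadjusted p of 0.05), beside 14.9% of all tested genes, and 2 with DESeq2 and 2 with limma-voom, while the members Apoe, Abca1 and Pltp were higher. Nr1h2, which encodes the beta form of the receptor, was at log2 0.12 ± 0.13 SE in that comparison and -0.06 ± 0.13 in NRAS against empty. The lipogenic target Srebf1 was at -0.03 ± 0.14 and 0.00 ± 0.14. Nr1h2 and Srebf1 were named after their values were seen. In NRAS against empty, 6 of the 14 passed the threshold, beside 32.5% of all tested genes. Smpdl3a, a liver X receptor target that encodes a secreted phosphodiesterase, fell by 1.55 ± 0.13 on the log2 scale (edgeR adjusted p = 8.71e-07), and Mertk, a receptor for dying cells, fell by 1.01 ± 0.27 (adjusted p = 0.0108). The Mertk call was lost without empty replicate 1 or NRAS replicate 3 (log2 -0.88 to -0.87, edgeR adjusted p = 0.0514 to 0.0543). In SETBP1+NRAS against NRAS, 0 of the 14 passed with edgeR, beside 1.91% of all tested genes, and 0 with DESeq2 or limma-voom. The edgeR count at an unadjusted p of 0.05 was 0 there as well. No share of all tested genes is given for the unadjusted counts of this list, so nothing is read from them.

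Of 13 lipoprotein receptors and their partners, all tested, 2 rose and 3 fell in SETBP1 against empty, beside 8.31% and 6.55% of all tested genes, and 0 passed when only these 2 groups were fitted (edgeR adjusted p = 0.0843 for Cd36). The list median was log2 -0.15 there and -0.22 in NRAS against empty. Cd36, the scavenger receptor for fatty acids and oxidised lipoprotein, rose by log2 1.52 ± 0.29 SE (edgeR adjusted p = 0.00678). The sorting receptors Sorl1 and Sort1 fell, by 1.20 ± 0.25 (adjusted p = 0.00968) and 0.84 ± 0.21 (adjusted p = 0.0188) on the log2 scale in edgeR. Sorl1 lost its call without empty replicate 3 (log2 -1.07, edgeR adjusted p = 0.0546), and Sort1 without empty replicate 1 or 3 (log2 -0.88 to -0.74, adjusted p = 0.0554 to 0.0898). In NRAS against empty 2 rose and 5 fell, beside 17.0% and 15.5%, again with Cd36 higher (log2 2.79 ± 0.29, edgeR adjusted p = 7.27e-06) and Sort1 (-1.35 ± 0.21, adjusted p = 2.61e-04) and Sorl1 (-1.33 ± 0.25, adjusted p = 0.00115) lower. Cd36 ran from 7.19 to 15.6 normalised CPM in empty, 17.5 to 39.3 in SETBP1, 58.2 to 77.6 in NRAS and 156 to 159 in SETBP1+NRAS, with no overlap between groups. In SETBP1+NRAS against NRAS, Cd36 rose by log2 1.16 ± 0.25 (edgeR adjusted p = 0.0289), the 1 gene of this list past the threshold there, beside 1.91% of all tested genes, and lost its call without any 1 library of the 2 groups (1.03 to 1.23, adjusted p = 0.08 to 0.155).

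The list of lipase partners, other lipases and lipid storage genes held 19 genes, 16 tested. In SETBP1 against empty, 5 rose and 2 fell, beside 8.31% and 6.55% of all tested genes, and 1 passed when only these 2 groups were fitted. The list median was log2 0.09 there and -0.26 in NRAS against empty. The fatty acid binding proteins Fabp4 and Fabp5 rose by log2 2.29 ± 0.41 SE (edgeR adjusted p = 0.00491) and 1.10 ± 0.12 (adjusted p = 3.44e-04), and the lipid droplet coat gene Plin2 by 0.73 ± 0.19 (adjusted p = 0.021). In NRAS against empty, where Lpl was 7.66-fold higher, 3 of the 16 rose and 6 fell, beside 17.0% and 15.5% of all tested genes. Those that rose were Plin2 (log2 1.44 ± 0.19, edgeR adjusted p = 5.70e-05), Fabp4 (1.36 ± 0.43, adjusted p = 0.0257) and Abhd5 (1.02 ± 0.10, adjusted p = 3.19e-06), the activator of the main triglyceride lipase of lipid droplets. Plin2 in SETBP1 against empty lost its call without empty replicate 1 or 3 (log2 0.63 to 0.74, edgeR adjusted p = 0.0745 to 0.104). Fabp4 in NRAS against empty lost its call without empty replicates 1 or 3 or NRAS replicates 1 or 2 (log2 0.95 to 1.38, edgeR adjusted p = 0.0556 to 0.0966). In SETBP1+NRAS against NRAS 0 rose and 2 fell, beside 0.528% and 1.38%, Mgll, a monoglyceride lipase, by 1.14 ± 0.25 on the log2 scale (edgeR adjusted p = 0.0311) and Dgat2, which makes triglyceride, by 0.44 ± 0.11 (adjusted p = 0.0489). The Mgll call was lost without any 1 library of the empty or NRAS groups or SETBP1+NRAS replicates 1 or 2 (log2 -1.18 to -1.03, edgeR adjusted p = 0.0513 to 0.164). The Dgat2 call was lost without any 1 library of the empty, NRAS or SETBP1+NRAS groups (log2 -0.49 to -0.37, edgeR adjusted p = 0.0708 to 0.244). Neither passed with limma-voom (adjusted p = 0.06 for Mgll and 0.0611 for Dgat2).

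All 14 genes of intracellular cholesterol transport and esterification were tested, with a median log2 fold change of -0.19 in SETBP1 against empty and -0.13 in NRAS against empty. In SETBP1 against empty 1 rose and 4 fell, beside 8.31% and 6.55% of all tested genes (1 passed when only these 2 groups were fitted), led by the oxysterol-binding genes Osbpl2 (log2 -0.74 ± 0.09 SE, edgeR adjusted p = 8.28e-04) and Osbp (-0.43 ± 0.13, adjusted p = 0.0388) and the cholesteryl ester hydrolase Nceh1 (-0.47 ± 0.14, adjusted p = 0.0387). The Nceh1 call was lost without any 1 library outside the SETBP1 group (log2 -0.50 to -0.40, edgeR adjusted p = 0.0525 to 0.15). The Osbp call was lost without any 1 library other than NRAS replicate 3 and SETBP1 replicate 1 (log2 -0.48 to -0.30, edgeR adjusted p = 0.051 to 0.159). In NRAS against empty 2 rose and 5 fell, beside 17.0% and 15.5%. The 2 enzymes of the list that make oxysterols, ligands of the liver X receptors, went opposite ways. Ch25h, which makes 25-hydroxycholesterol, rose from 0 to 3 counts per library in empty to 82 to 97 in NRAS, or 0.262 ± 0.227 to 11.7 ± 1.22 normalised CPM (SD, n = 3 each, edgeR adjusted p = 8.51e-07). Cyp27a1, which makes 27-hydroxycholesterol, fell by 2.48 ± 0.41 on the log2 scale (edgeR adjusted p = 3.93e-04). Gramd1b, which carries cholesterol from the plasma membrane to the endoplasmic reticulum, rose by 1.92 ± 0.16 (edgeR adjusted p = 1.23e-06). Ch25h was at 0.208 ± 0.187 normalised CPM in SETBP1 and 33.5 ± 4.73 in SETBP1+NRAS, and was the 1 gene of this list past the threshold in SETBP1+NRAS against NRAS, beside 1.91% of all tested genes (log2 1.52 ± 0.25, edgeR adjusted p = 0.00639). That call was lost without NRAS replicate 3 or SETBP1+NRAS replicate 1 (log2 1.44 to 1.45, edgeR adjusted p = 0.0511 to 0.0558).

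The genes whose pattern was most like that of Apoe were found by Pearson's r of log2 CPM over the 12 libraries, among 8830 genes with at least 10 normalised CPM in their highest group. The 5 most alike were Slc36a2 (r = 0.993), Kcnk12 (0.990), Dcxr (0.987), Pik3r6 (0.987) and Cnpy2 (0.984), an amino acid transporter, a potassium channel, a xylulose reductase, a phosphoinositide kinase subunit and an endoplasmic reticulum protein. The 5 most opposite were Aqp9 (r = -0.997), Ptk2b (-0.994), Myadm (-0.993), Ezr (-0.992) and Nab1 (-0.990). The Apoe values fall into separate ranges with and without mutant NRAS, so r mainly describes that split, and no p is given. The size of the change was not shared: Slc36a2 went from a mean of 7.78 normalised CPM in empty to 12.8 in SETBP1 and 0.443 in NRAS, while Cnpy2 went from 104 to 124 and 68.0. Aqp9, a water and glycerol channel, was at 45.7 in empty, 35 in SETBP1, 114 in NRAS and 102 in SETBP1+NRAS. Members were left out of this ranking.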

How the data were processed

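RNA was measured by RNA-seq in 12 libraries, made with a Takara SMART-Seq ultra-low-input kit per the labels' protocols. The authors deposited 1 table of raw whole-number counts per gene. STAR, DESeq2 and the mm10 build are named in the submitters' processing notes, while versions, counting tool, annotation and strandedness are not given in the sources used here. Groups came from the transduction labels, and columns were matched by library name.

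Counts were scaled by TMM and tested with edgeR 4.0.16 (quasi-likelihood F test, R 4.3.3) after filterByExpr (minimum count 10, minimum total 15), which kept 10993 of 19910 genes holding 99.9% of counts. The fit used 4 group means over 12 libraries. P-values were Benjamini-Hochberg adjusted over all tested genes, at a threshold of 0.05. SE is the absolute log2 fold change over the square root of F. Normalised CPM is CPM of the TMM-scaled total, and log2 CPM used a prior count of 2. The fit was tested on simulated counts.

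The members and the lists were chosen with earlier results of these data known. All 10 members are named, with the 5 genes most like and most unlike Apoe and all tested neighbours. From each list, up to 3 genes are named per comparison, those past the threshold with the largest change and at least 1 CPM in the highest group, for SETBP1 or NRAS against empty and SETBP1+NRAS against NRAS, and 1 gene this rule names is not reported here. Loci and exon lengths are from GENCODE vM21 on GRCm38, the same build as mm10. Replicate pairs differed by more than sampling noise, so no library was counted as a duplicate. Alternatives were DESeq2 1.42.0, limma-voom (limma 3.58.1), other scalings and filters, a replicate block, fits of only the groups compared, and each library left out in turn.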

Additional observations from a re-analysis of the deposited data

How the results depend on the processing

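Of 988 member values under the 21 alternative fits, 932 kept their side of the threshold, 43 lost the threshold, 12 gained it and 1 moved. The 932 include sign changes smaller than the SE where neither fit passed, as for Mylip in SETBP1 against empty. The 1 that moved changed sign by at least its SE, again with neither fit passing. Among values that passed in either fit, 0 reversed. Of 1401 values of named list genes, 1257 kept their direction and their side of the threshold, 144 lost the threshold and 0 reversed. Apoe and Lpl lost no call in any of the 12 fits that left out 1 library.

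Fitting only the groups compared gave 110 genes past the threshold in SETBP1 against empty (1633 with all groups), with 2 members, Apoe and Lipg, in place of 4. It gave 883 genes (394 higher, 489 lower) in SETBP1+NRAS against NRAS (210 with all groups), with 3 members, Lpl, Lipg and Pltp, in place of 1, and 3083 genes in SETBP1+NRAS against SETBP1 (4661). DESeq2 called 379 genes in SETBP1+NRAS against NRAS. For the interaction (5 genes), DESeq2 called 81, limma-voom 3 and the fit without a filter 14. Among the lists in SETBP1+NRAS against NRAS, fitting only the 2 groups called 6 lipoprotein receptor genes (1 with all groups), 8 lipase and lipid storage genes (2), 4 intracellular transport genes (1) and 1 liver X receptor list gene (0). DESeq2 called 5 and 4 in the first 2 of these lists. The same restriction in SETBP1 against empty left 0 lipoprotein receptor genes (5 with all groups), 1 lipase and lipid storage gene (7), 1 intracellular transport gene (5) and 0 chromosomal neighbours (2). In SETBP1+NRAS against SETBP1 it left 2 liver X receptor list genes (5) and 1 neighbour (3), and in SETBP1+NRAS against empty it called 10 liver X receptor list genes (6). DESeq2 and limma-voom each called 2 liver X receptor list genes (0 in edgeR) and 2 apolipoprotein list genes (1) in SETBP1 against empty. The cause was not tested.

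With 1 library left out, the genes called ranged from 390 to 3191 in SETBP1 against empty, 2681 to 5224 in NRAS against empty, 3658 to 5969 in SETBP1+NRAS against empty, 93 to 836 in SETBP1+NRAS against NRAS, 3681 to 5166 in SETBP1+NRAS against SETBP1 and 1 to 110 for the interaction. The members called ranged from 3 to 5, 3 to 7 (fewest without NRAS replicate 2), 4 to 7, 1 to 2, 6 to 8 and 0 to 0 in the same order.

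Replicate numbers did not pair the libraries: same-number deviations correlated at -0.13 to 0.12 over 18 pairs, 1 of them over 0.1, and 2 of 12 libraries correlated best with their own number. The fit with the replicate block called 4, 7, 6, 1, 7 and 0 members in SETBP1 against empty, NRAS against empty, SETBP1+NRAS against empty, SETBP1+NRAS against NRAS, SETBP1+NRAS against SETBP1 and the interaction, as without it. Among named list genes the block lost the calls of Nceh1, Osbp and Gemin7 in SETBP1 against empty, Abca3 in NRAS against empty and Cd36 and Dgat2 in SETBP1+NRAS against NRAS (edgeR adjusted p = 0.0569 to 0.0757). Scaling by library size alone moved the median log2 fold change of all genes to -0.10 in NRAS against empty and -0.13 in SETBP1+NRAS against empty. Depth limits Apoc1, Apoc2 and Abca1 under NRAS.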
